A study of Homo sapiens with 12 samples.

Results

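The genes described here are 6 members of the BCL2 family, BBC3, PMAIP1, BCL2L11, MCL1, BCL2 and BCL2L1, and the regions on them at which AGO2 was found. A region belongs to a gene when it overlaps the RefSeq span of that gene by at least 1 base on the strand of the gene. By this rule the 6 genes held 23 of 4111 regions, 13 of 2921 in the 5xA list and 10 of 1190 in the WT list. The regions come from eCLIP, in which protein and RNA are crosslinked by ultraviolet light, the protein is pulled down with an antibody and the RNA fragments that come with it are sequenced. HCT116 cells, an established line from a human colorectal carcinoma, were grown for 48 h, crosslinked at 400 mJ/cm2 and subjected to immunoprecipitation with an anti-FLAG antibody. The 5xA group expressed tagged FH-AGO2_5xA, an AGO2 with alanine in place of a cluster of phosphorylated residues, and the WT group expressed tagged FH-AGO2_WT. Each group had 2 immunoprecipitates, which the authors merged into 1 region list. The sources used here do not say how the tagged lines were made or whether each is a single clone. The 8 libraries of inputs and AGO2_KO cells, the controls of the design, were not analysed here, so no background of the knockout stands beside the values.

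BCL2 family proteins decide at the mitochondrial outer membrane whether a cell enters apoptosis. Anti-apoptotic members such as MCL1, BCL2 and BCL2L1 (BCL-XL) hold the pore-forming proteins BAX and BAK1 in check. BH3-only members such as BBC3 (PUMA), PMAIP1 (NOXA) and BCL2L11 (BIM) bind the anti-apoptotic proteins or the pore formers and start cell death. AGO2 carries a miRNA whose seed, bases 2 to 8, pairs with target mRNAs, mostly in their 3' untranslated part, and lowers their translation and stability. Several miRNAs are reported regulators of the family, among them the miR-17 family for BCL2L11, miR-15 and miR-16 for BCL2, let-7 for BCL2L1 and miR-29 for MCL1.

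Of a list of 20 miRNAs reported as regulators of these genes, 6 had a region at one of their own genes in the 5xA list, and the same 6 had one in the WT list. These regions lay at 8 of the 29 genes of the listed miRNAs in each list. Over 1560 miRNA genes with a known strand, 1.86% held a 5xA region and 1.15% a WT region; the listed miRNAs were not drawn from these at random. The other 14, among them miR-17-5p, miR-29a-3p, miR-221-3p and miR-125b-5p, had none in either list. All 6 miRNAs with a region were 5p forms, and no 3p form in the list had one. Depth and the level of each miRNA are unknown here, so a miRNA without a region is not shown to be unbound. The mature sequences of the 6 (RefSeq, GRCh38.p14) are shown 5' to 3' because these are the listed miRNAs whose own genes AGO2 was found on; capitals mark the seed.

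miR-106b-5p: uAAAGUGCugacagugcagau
miR-93-5p: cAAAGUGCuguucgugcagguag
miR-16-5p: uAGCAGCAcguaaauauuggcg
let-7a-5p: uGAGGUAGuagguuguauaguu
miR-34a-5p: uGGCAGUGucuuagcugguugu
miR-181a-5p: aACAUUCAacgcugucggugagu

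The miR-106b-5p and miR-93-5p seeds are the same as those of miR-17-5p and miR-20a-5p, and a full seed match in an mRNA would read GCACUUU. For miR-16-5p the match reads UGCUGCU and for let-7a-5p CUACCUC. The regions at these miRNA genes covered every base of the mature miRNA in both lists. In the 5xA list the region began at base 1 of the mature miRNA at 6 of 8 miRNA genes, and in the WT list at 8 of 8, with WT widths of 65 to 70 bases. The 5xA region at MIRLET7A2 began 1 base earlier. At MIR106B and MIR93, which lie side by side, a 5xA region of 291 bases, chr7:100093773-100094063, contained both WT regions of 65 bases each. No genome sequence was used here, so the letters under the regions of the BCL2 family genes were not read and no seed match was searched in them. Which miRNA led AGO2 to a given region was not tested.

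Of the 6 genes, 4 held a region in both lists, BBC3, PMAIP1, BCL2L11 and MCL1. BCL2 and BCL2L1 held 0 regions in either list, and no gene of the 6 was in 1 list only. Over the 15844 protein-coding genes with a known strand, 7.67% held a 5xA region and 3.45% a WT region. Genes with both made up 3.07%, genes with 5xA alone 4.60% and genes with WT alone 0.379%. The 6 genes were chosen with these results known, so their share beside the background is a description. Each list is a single merged file whose score column is 0 in every row. The number of reads behind a region is therefore unknown, no replicate spread can be set beside any count below, and no test between 5xA and WT was run.

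**Figure D1:**
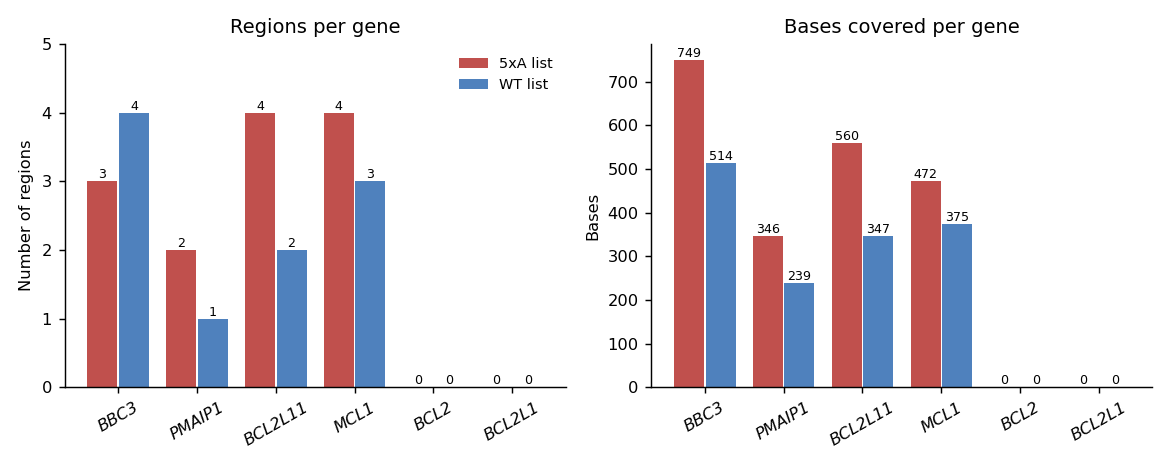
Number of regions (left) and bases covered (right) on the strand of each of the 6 genes, in the 5xA list (red) and in the WT list (blue); each bar is 1 merged list, so there are no error bars. BBC3 had fewer but longer regions in the 5xA list (3 regions and 749 bases) than in the WT list (4 regions and 514 bases), and BCL2 and BCL2L1 stand at 0.

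BBC3, whose product PUMA is a BH3-only protein that promotes apoptosis, held 3 regions over 749 bases in the 5xA list and 4 regions over 514 bases in the WT list. The gene lies on the minus strand of chromosome 19 (hg38, 47220824 to 47232860). Its regions formed 1 nearly continuous stretch close to the downstream end. The 5xA regions were chr19:47220909-47221085, chr19:47221210-47221434 and chr19:47221436-47221782, with widths of 177, 225 and 347 bases. The WT regions were chr19:47221109-47221251, chr19:47221298-47221433, chr19:47221436-47221562 and chr19:47221613-47221720, with widths of 143, 136, 127 and 108 bases. Together they filled 850 bases of a stretch of 874 bases, 7.26% of the gene span. That stretch ran from 958 to 85 bases before the downstream end.

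Within this stretch the lists divided the same ground differently. The 5xA region of 347 bases contained a WT pair of 127 and 108 bases, which stood 50 bases apart. The 5xA region of 225 bases contained the WT region of 136 bases and met the WT region of 143 bases by 42 bases. Both lists had a break at nearly the same place, 1 base wide between the 5xA regions at 47221434 and 47221436, and 2 bases wide between the WT regions at 47221433 and 47221436. The remaining 5xA region, the one nearest to the gene end, met no WT region and lay 23 bases from one. The lower number of 5xA regions therefore goes with more bases covered, by 235. When regions within 50 bases of each other were joined first, BBC3 had 2 regions in the 5xA list and 1 in the WT list, which turns the direction of the count.

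PMAIP1 encodes NOXA, a small BH3-only protein that binds MCL1. It lies on the plus strand of chromosome 18 (59899996 to 59904305) and held 2 regions over 346 bases in the 5xA list, against 1 region over 239 bases in the WT list. The main region sat almost at the end of the gene. The 5xA region chr18:59904039-59904290 was 252 bases wide and ended 15 bases before the gene end, and the WT region chr18:59904019-59904257 was 239 bases wide and ended 48 bases before it. They had 219 bases in common, 86.9% of the 5xA region and 91.6% of the WT region. The 5xA list also had chr18:59903062-59903155, 94 bases wide, 863 bases from the nearest WT region. Among the 5 regions of the 4 genes that were in the 5xA list without a WT partner, this one lay farthest from any WT region.

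BCL2L11 encodes BIM, a BH3-only protein and a widely studied target of the miR-17 family. It lies on the plus strand of chromosome 2 (111120914 to 111168445) and held 4 regions over 560 bases in the 5xA list, against 2 regions over 347 bases in the WT list. This was the largest difference in number among the 6 genes. Although the gene spans 47532 bases, all regions began at most 2271 bases before its end, in a stretch that made up 4.75% of the span. At the downstream end, the 5xA region chr2:111168193-111168429 (237 bases) contained the WT region chr2:111168230-111168423 (194 bases). Farther up, the 5xA region chr2:111166857-111166976 (120 bases) and the WT region chr2:111166819-111166971 (153 bases) had 115 bases in common.

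The other 2 BCL2L11 regions of the 5xA list flanked this upstream pair. They were chr2:111167105-111167212, 108 bases wide and 133 bases from the WT region, and chr2:111166174-111166268, 95 bases wide and 550 bases from it. The WT list had a gap of 1258 bases between its 2 regions, and 1 of the added 5xA regions lay in that gap.

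MCL1, a short-lived anti-apoptotic protein, is encoded by a gene that held 4 regions over 472 bases in the 5xA list and 3 regions over 375 bases in the WT list. Its span is chr1:150574558-150579610. The RefSeq table used gives no strand for MCL1; it was taken as the minus strand from general knowledge, and all 7 regions in the span were on that strand. They fell into 2 clusters, one close to the gene end and one about a kilobase further up. In the upper cluster, the 5xA region chr1:150575970-150576124 and the WT region chr1:150575976-150576151 had 149 bases in common. Next to them, the 5xA region chr1:150575686-150575861 (176 bases) contained the WT region chr1:150575693-150575764 (72 bases), the narrowest WT region of the family.

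Near the MCL1 gene end, the 5xA list had the regions chr1:150574701-150574764 (64 bases) and chr1:150574841-150574917 (77 bases), and the WT list had chr1:150574851-150574977 (127 bases). Here the wider region was the WT one, and 67 bases were in common. The 64-base region met no WT region, stood 86 bases from one, and was the narrowest of the 13 in the 5xA list. As in BBC3, the added 5xA region was the one nearest to the gene end, whereas in PMAIP1 and BCL2L11 the added regions lay further up.

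**Figure D2:**
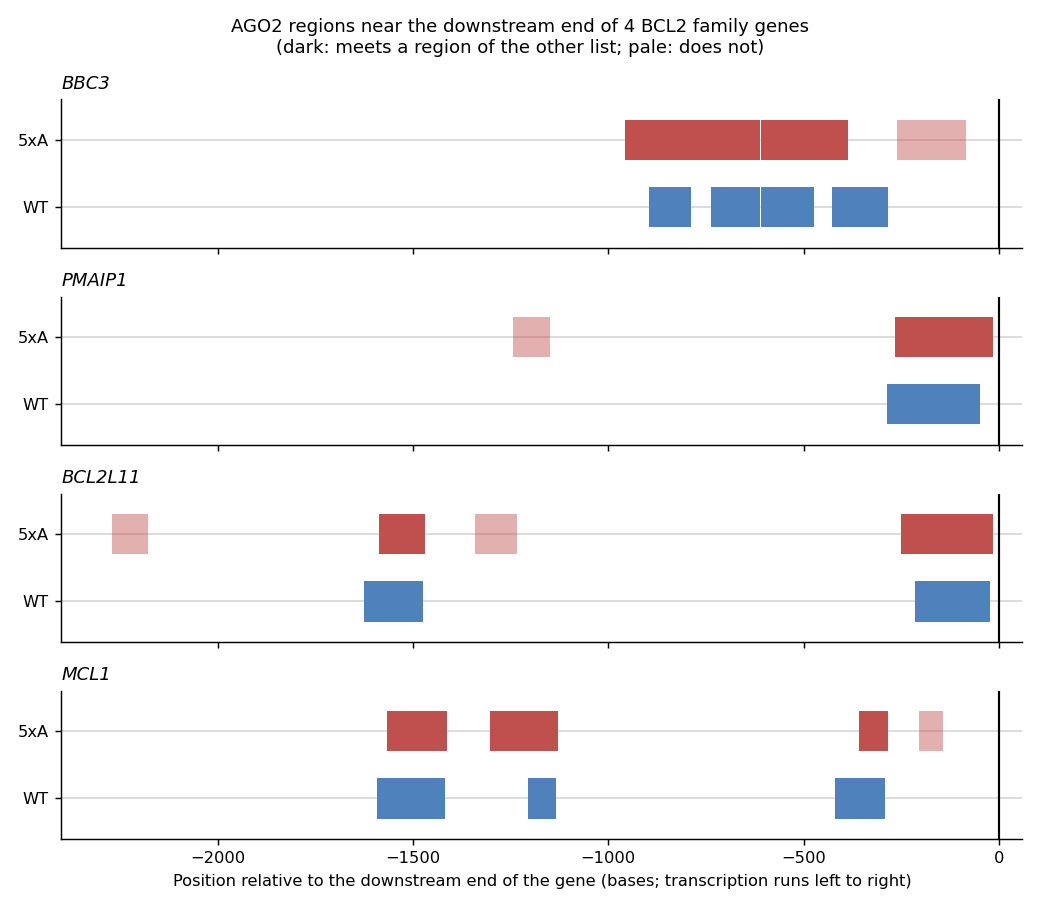
Regions of the 5xA list (red, upper row) and the WT list (blue, lower row) in the 4 genes that held any, drawn to scale by their distance in bases from the downstream end of the gene (black line at 0), with transcription from left to right. Dark boxes meet a region of the other list and pale boxes do not; the 5 pale boxes are all in the 5xA rows, and every box lies within 2271 bases of the gene end.

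BCL2 and BCL2L1, anti-apoptotic like MCL1, held 0 regions of either list on either strand. BCL2 is the longest gene of the 6, with a span of 196745 bases on chromosome 18, and BCL2L1 spans 59512 bases on chromosome 20. On chromosome 18, the nearest region to BCL2 was 3219055 bases away in the 5xA list, which was the downstream region of PMAIP1, and 3108530 bases away in the WT list. On chromosome 20, the nearest to BCL2L1 was 57965 bases away in the 5xA list and 57959 bases away in the WT list. Of the 5143 protein-coding genes with a span of at least 50 kb, 7.91% held a 5xA region and 3.15% a WT region. Most long genes thus held none. Because the depth of the lists and the level of each mRNA are unknown here, a gene without a region may be unbound, bound below the threshold of the lists, or little expressed, and these cannot be told apart.

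Of the 13 5xA regions of the family, 8 met a WT region (61.5%, exact 95% Clopper-Pearson interval 31.6 to 86.1), beside 32.3% of the whole 5xA list. All 10 WT regions met a 5xA region (100%, 69.2 to 100), beside 81.3% of the whole WT list. These shares are not like for like. All regions of the family lie in genes in both lists. The whole lists also hold regions in 729 protein-coding genes with 5xA alone and 60 with WT alone, where a partner is hardly possible. With a reciprocal overlap of 50%, 6 of the 13 5xA regions and 6 of the 10 WT regions were shared. The intervals cover counting error only and treat the regions of 1 gene as independent, which they are not. The 5xA regions that met a WT region had a median width of 200.5 bases, and the 5 that did not had one of 95 bases. A wider region meets another more easily, so width and sharing are not separate measures.

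Counted in bases, 898 were covered with 5xA alone, 1229 by both lists and 246 with WT alone. The common bases were 57.8% of the 5xA bases and 83.3% of the WT bases. Per gene, the medians were 58.1% and 84.7% over the 4 bound genes, against 55.2% and 93.6% over the 486 protein-coding genes in both lists. The 5xA list covered more bases in 4 of the 4 bound genes, beside 81.5% of the 486 protein-coding genes in both lists. The ratio of 5xA over WT bases was 1.46 in BBC3, 1.45 in PMAIP1, 1.61 in BCL2L11 and 1.26 in MCL1. Their median was 1.45, against 1.49 over the 486 genes. By number, 3 of the 4 had more 5xA regions (49.8% of the 486 genes) and 1, BBC3, had fewer (6.38%). The median number of regions was 3.5 in the 5xA list and 2.5 in the WT list for the 4 genes, against 2 and 1 for the 486.

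**Figure D3:**
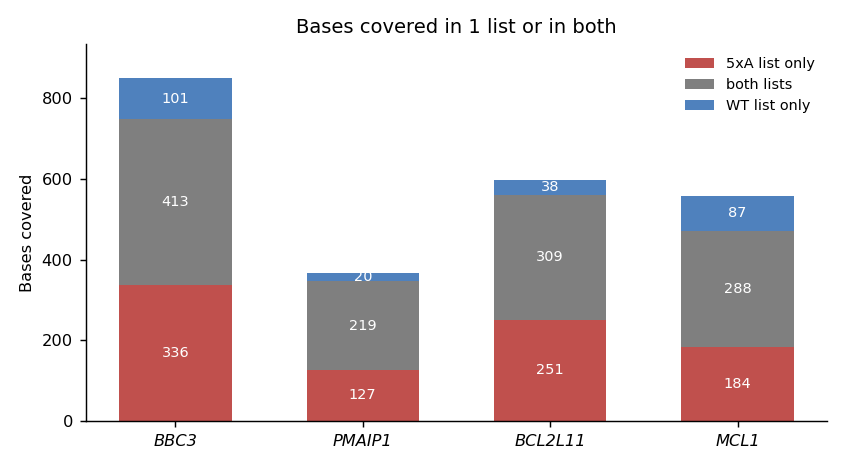
Bases covered in each of the 4 genes, divided into those in the 5xA list only (red), in both lists (grey) and in the WT list only (blue). In each gene the bases in the 5xA list only outnumber those in the WT list only, from 127 against 20 in PMAIP1 to 336 against 101 in BBC3.

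Among bound protein-coding genes, 17.0% held at least as many 5xA regions as BBC3, and 6.04% at least as many WT regions, a number that rests on WT regions at most 50 bases apart. For BCL2L11 these shares were 9.38% and 30.4%, for MCL1 9.38% and 11.5%, and for PMAIP1 36.1% and 100%. BBC3 thus stood highest of the 4 by WT regions, and BCL2L11 and MCL1 by 5xA regions. By covered bases, 5.76% of bound genes reached the 5xA value of BBC3 and 8.06% its WT value. For BCL2L11 these shares of bases were 9.14% and 14.7%, for MCL1 10.8% and 13.6%, and for PMAIP1 17.5% and 25.6%. The genes with the same 2 region numbers and the nearest covered bases in the 2 lists were BAZ2A for BBC3 (691 5xA and 479 WT bases), FBXW7 for PMAIP1 (342 and 241), FBXL19 for BCL2L11 (464 and 334) and PANK3 for MCL1 (441 and 353). Likeness was the sum of the absolute log2 differences in bases, 0.22, 0.03, 0.33 and 0.19. It rests on 2 lists only, and BAZ2A was the only other gene with the region numbers of BBC3. The match was picked from 83 genes for PMAIP1, 10 for BCL2L11 and 4 for MCL1. A small difference is thus easiest to reach for PMAIP1.

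In 6 places, a single 5xA region and a single WT region met one another alone, 1 in PMAIP1, 2 in BCL2L11 and 3 in MCL1. Their centres lay 15.5 to 45 bases apart, with a median of 24. The 5xA region was the wider in 3 of these 6 pairs, beside 66.8% of the 847 such pairs in the whole lists. At the downstream edge the 5xA region reached further in 6 of 6 pairs, by 5 to 33 bases (median 6.5), beside 60.1% of all pairs with a median of 3 bases. At the upstream edge it reached further in 2 of 6, with a median of -23.5 bases, beside 60.8% of all pairs with a median of 4 bases. The centre of the 5xA region was nearer to the gene end in 4 of the 6 pairs and farther from it in 2, one in BCL2L11 and one in MCL1. The edges were compared after the values were seen, over 6 pairs in 3 genes, and this was not tested.

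All regions of the family lay near the downstream gene end, the side of the 3' untranslated part. Within 5 kb of that end were 13 of 13 5xA and 10 of 10 WT regions, beside 82.2% and 85.3% over protein-coding genes, where a region in overlapping genes counts for each. From the centre of the region to the gene end, the distance was 134 to 2224 bases for 5xA (median 785) and 118.5 to 1550 bases for WT (median 608.25). Over protein-coding genes, counted the same way, the medians were 1438.25 bases for 5xA and 1363.25 for WT. PMAIP1 and MCL1 are short, with spans of 4310 and 5053 bases, so a region anywhere in them lies within about 5 kb of the end. The genes' 6 promoter windows in RefSeq, which run from 250 bases before to 50 after a gene start and cover 5 of the 6 genes, held 0 regions of either list. Exon annotation was not used here, so a region is placed by distance and not by gene part.

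**Figure D4:**
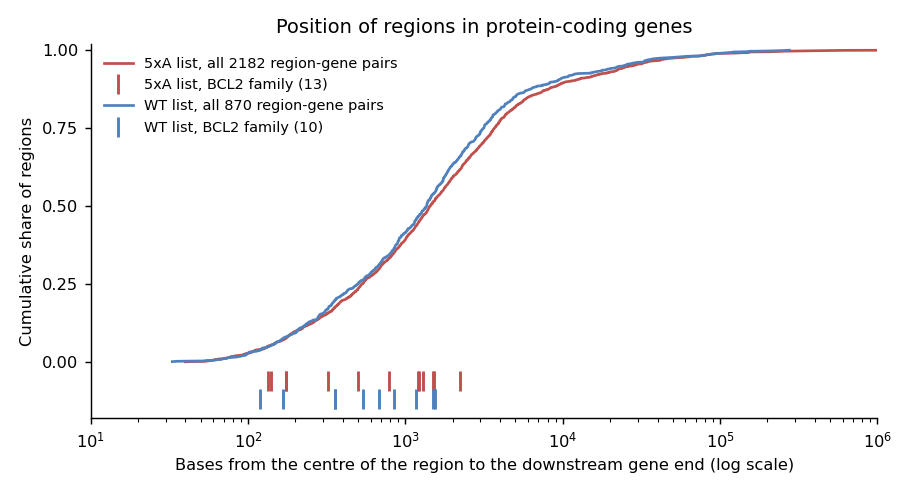
Cumulative share of regions in protein-coding genes by distance in bases from the region's centre to the downstream gene end (log scale), for 2182 pairs of a 5xA region and a gene (red curve) and 870 pairs of a WT region and a gene (blue curve), with the BCL2 family regions as ticks below the curves. The ticks lie between 118.5 and 2224 bases, in the lower and middle part of both curves.

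No region of the 4 genes overlapped another annotated gene. The BBC3 span also holds the miRNA genes MIR3190 and MIR3191, around chr19:47226942-47227021, about 5 kb from the regions, and these had 0 regions in either list.

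Further genes of apoptosis were read from 5 lists with 59 genes, of which 10 were bound in both lists. A further 3 had a region with 5xA alone and 1 with WT alone. This is 22.0% of the genes with a 5xA region and 18.6% with a WT region, beside the 7.67% and 3.45% given above for protein-coding genes. The lists were chosen with earlier results of these data known. For 15 of the 59 genes the table gives no strand, and regions on either strand were counted.

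Among 18 other genes of the BCL2 family or related to it, such as BECN1, 2 held a 5xA region (11.1%) and 1 a WT region (5.56%). BCL2L12, a divergent member, held 2 5xA regions (414 bases) and 1 WT region (122 bases), and the WT region lay wholly within 5xA bases. BAK1, the pore-forming effector that MCL1 and BCL2L1 restrain, held 2 5xA regions (282 bases), which lay between 1164 and 654 bases before the gene end, and 0 WT regions. The other 16, with BAX, BID, BAD and BCL2L2 among them, held none.

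The caspase and apoptosome list had 1 bound gene of 13. CASP8, the initiator caspase of the death receptor pathway, held 2 5xA regions (155 bases) and 1 WT region (115 bases), with 82 bases in common. Of 6 inhibitors of apoptosis proteins, XIAP, which blocks caspases directly, held 1 5xA region (216 bases) and 2 WT regions (338 bases). XIAP was thus covered over more bases in the WT list, opposite to the 4 BCL2 family genes. The same held for TNFRSF10A and VDAC1, described below.

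Of 9 genes of the death receptor pathway, not all of them receptors, 2 were in both lists and 1 in the WT list only. TNFRSF1A, a receptor of TNF, held 3 5xA regions (347 bases) and 2 WT regions (143 bases), all within 625 bases of the gene end. The TRAIL receptor gene TNFRSF10B held 2 5xA regions (216 bases) and 2 WT regions (215 bases). Another TRAIL receptor gene, TNFRSF10A, held 0 5xA regions and 1 WT region (101 bases). The table gives no strand for these TRAIL receptor genes.

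Of 13 regulators of BCL2 proteins, 5 were in both lists and 2 in the 5xA list only. MDM2, a ubiquitin ligase, held 8 5xA regions (1136 bases) and 5 WT regions (558 bases), 8744 bases or more from the annotated gene end. FOXO3, a transcription factor that activates BCL2L11 and BBC3, held 1 5xA region (183 bases) and 1 WT region (115 bases), with 113 in common. FBXW7, which marks MCL1 for degradation, held 2 5xA regions (342 bases) and 1 WT region (241 bases); 1 of the 5xA regions lay 214718 bases from the gene end. VDAC1, a channel of the mitochondrial outer membrane, held 1 5xA region (142 bases) and 1 WT region (226 bases). HUWE1, another ubiquitin ligase of MCL1, held 1 region of 70 bases in each list, at the same position, and that region lies on MIRLET7F2, so it was counted for the host gene by position alone. DYNLL2, a dynein light chain, held 2 5xA regions (174 bases) and the cell cycle transcription factor gene E2F1 held 1 (58 bases), both with 0 WT regions. The table gives no strand for DYNLL2, so its regions were counted on either strand.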

How the data were processed

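AGO2-bound RNA was mapped by eCLIP in HCT116 cells, with 12 libraries in 6 groups of 2. The deposited files used here are 1 region list for the 5xA and 1 for the WT immunoprecipitates, each merging both replicates, per the labels. Positions (another unit, in bases) refer to the build hg38; TopHat2 and cutadapt 1.9.1 were among the tools, per the submitters' processing notes. The deposited score is 0 for all regions and was not used. The peak caller, its threshold, any use of inputs and knockouts, and the merging rule were not given in any source used here. The depth behind each region is unknown.

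Regions were matched to RefSeq gene spans (GRCh38.p14) in Python 3.11.15 with pandas 2.3.3, with starts counted from 1, and the members' counts were the same with bedtools 2.31.1. Strands came from RefSeq promoter and miRNA tables for 15844 of 20056 protein-coding genes, and for MCL1, which is among them, from general knowledge. Sharing needed an overlap of 1 base on the same strand. Covered bases are the union of a list's regions in the span. The matching was tested on simulated data. No test between groups was run, since each list is 1 merged file; exact 95% Clopper-Pearson intervals (scipy 1.17.1) stand beside shares of regions. Genes named are the 6 members, every bound gene of the 5 apoptosis lists and 1 gene of like pattern per bound member. The members and lists were chosen with earlier results of these data known. Alternatives changed the joining of regions, strand, overlap rule, width, span and position.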

Additional observations from a re-analysis of the deposited data

How the results depend on the processing

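Of 82 values recomputed under the alternatives, 80 kept their direction or stayed within 1.5 times the reported value. Many of the 82 could not change, so this number says little about robustness. The 6 genes held no region on the other strand, in another gene or beyond 5 kb from the gene end. BCL2 and BCL2L1 had 0 regions under every setting. With regions within 50 bases joined, the 5xA minus WT number of BBC3 regions was 1, against -1 as deposited; the WT regions of BBC3 lie 2 to 50 bases apart and are joined by that rule itself. With a distance of 5 bases, chosen after seeing the data, it was -1, with 2 5xA and 3 WT regions. With a reciprocal overlap of 50%, 6 of the 5xA regions were shared in place of 8, and 6 of the WT regions in place of 10; of the WT regions that lost their partner, 3 are in BBC3 and 1 in MCL1. Regions of at least 75 bases left 12 5xA and 9 WT regions. The genes of the 5 apoptosis lists with a region numbered 9 (5xA) and 8 (WT) within 5 kb of the gene end, against 13 and 11 over the whole span. For genes with no known strand, a region near either end of the gene was counted here, because their downstream end is not known. With the genes of no known strand left out, an alternative not planned beforehand, 11 genes (5xA) and 9 genes (WT) had a region over the whole span. No paired analysis was possible because each list pools its 2 replicates, and for the same reason no replicate was left out. Depth was unknown, so a gene without a region is not shown to be unbound.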
